A study of Mus musculus with 6 samples.

Results

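The 8 mitochondrial tRNAs encoded on the distal part of the heavy-strand transcript, downstream of mt-Co1, were examined in the duodenum of female mice with reduced or full Pol III gene dosage. They were mt-Td, mt-Tk, mt-Tg, mt-Tr, mt-Th, mt-Ts2, mt-Tl2 and mt-Tt, chosen by transcript identifier and position, and they are 8 of the 22 mitochondrial tRNAs and of the 1929 short transcripts quantified. Each of the 8 matched its identifier, version included, in the reference annotation. Wild-type mice were C57Bl/6N, and the other group carried 1 copy of a Polr3b loss-of-function allele on that background, labelled C57BL/6N-Polr3b<em7(IMPC)Tcp>/Tcp. The allele is a frameshift present in every tissue of the mouse, made by genome editing, and the 2 genotypes came from separate matings, of heterozygous or of wild-type offspring with wild-type C57Bl/6N mice. The genotypes were therefore not littermates, and genotype and parentage cannot be told apart, which bears on a genome inherited from the mother. There were 3 libraries per genotype, each from superior duodenum that was dissected after an overnight fast and flushed, with no separation of cell types described. The ages of these mice were not given in the sources used here. Fewer cells of a type and less RNA per cell cannot be told apart in such tissue RNA.

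Mammalian mitochondria keep a small circular genome that encodes rRNAs, tRNAs and subunits of the respiratory chain. Both of its strands are transcribed as long polycistronic RNAs by a dedicated mitochondrial polymerase, not by Pol III, and the tRNAs lie between the mRNAs, so that their excision releases the messages on either side. The gut epithelium depends on this system for its oxidative metabolism. The 8 tRNAs described here decode aspartate (mt-Td), lysine (mt-Tk), glycine (mt-Tg), arginine (mt-Tr), histidine (mt-Th), 1 of the 2 serine families (mt-Ts2), 1 of the 2 leucine families (mt-Tl2) and threonine (mt-Tt).

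In the annotation, mt-Td precedes mt-Co2, and mt-Tk lies between mt-Co2 and mt-Atp8. Further along, mt-Tg separates mt-Co3 from mt-Nd3, and mt-Tr separates mt-Nd3 from mt-Nd4l. The run mt-Th, mt-Ts2, mt-Tl2 sits between mt-Nd4 and mt-Nd5 with 0 bases between mt-Th and mt-Ts2 and with mt-Ts2 and mt-Tl2 sharing 1 base. The last, mt-Tt, follows mt-Cytb and abuts mt-Tp of the opposite strand. The sequences of 7 of them, from the GENCODE vM21 transcripts, are shown 5′ to 3′ as encoded, with the anticodon in capitals. They are the most abundant member (mt-Tk), the least abundant (mt-Tg), the one set apart in a single library (mt-Tr), the one with the steadiest share (mt-Tt) and the contiguous run of mt-Th, mt-Ts2 and mt-Tl2.
mt-Tk: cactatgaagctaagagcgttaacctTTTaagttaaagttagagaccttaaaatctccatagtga
mt-Tg: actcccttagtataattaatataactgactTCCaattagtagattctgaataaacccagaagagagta
mt-Tr: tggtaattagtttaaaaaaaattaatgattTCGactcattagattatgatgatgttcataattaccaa
mt-Tt: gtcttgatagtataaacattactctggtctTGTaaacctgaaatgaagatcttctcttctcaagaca
mt-Th: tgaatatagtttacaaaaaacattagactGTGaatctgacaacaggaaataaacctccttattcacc
mt-Ts2: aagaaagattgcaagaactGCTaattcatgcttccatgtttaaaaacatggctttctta
mt-Tl2: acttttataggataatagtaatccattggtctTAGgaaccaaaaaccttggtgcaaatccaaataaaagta
A 7-base loop with the anticodon at its centre was found in each, closed by 5 paired bases in 6 of the 8 tRNAs and by 4 in mt-Ts2 and mt-Tt. The members ran from 59 bases in mt-Ts2, the serine tRNA that lacks the D arm of the cloverleaf, to 71 in mt-Tl2. Their GC content was low, from 17.1% in mt-Td and 22.1% in mt-Tr to 34.3% in mt-Tt. Identity between 2 members ran from 44.1% to 62.2%, and a BLAST search of the 1356 named transcripts in the table returned 0 matches of a member to another transcript. Of these 1356, 24 matched in version, 22 of them the mitochondrial tRNAs, so most sequences searched may differ from those quantified. The remaining transcripts, among them those listed by RNAcentral identifier, were not compared, so reads shared with one of those could not be seen.

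Libraries held from 1719869 to 9771623 counts, and the 22 mitochondrial tRNAs took from 4.98% of these in wild-type replicate 1 to 20.1% in wild-type replicate 2. Wild-type replicate 1 was also the library in which the most abundant transcript of the table took the largest share, 47.5% against 21.1% to 37.7% elsewhere. Rank correlations between libraries of 1 genotype were 0.761 to 0.938 over 626 transcripts, the 2 lowest of the wild type being those with replicate 1, and no 2 libraries were duplicates. Hairpin transcripts of all 4 intestinal epithelial miRNAs looked for (Mir192, Mir194-1, Mir194-2 and Mir215) were present, with 7 to 126 summed counts per library, whereas the liver hairpin Mir122 had 1 count in all. Those of pancreas (3 of 3 listed were quantified) summed to 1 to 8 counts, mostly from Mir375, and those of blood and immune cells (3 of 4) to 1 to 33. Those of muscle (2 of 4) summed to 3 to 84, mostly from Mir143. Of the 2 nervous system hairpins looked for 0 were among the transcripts quantified, so absent hairpins say nothing about those tissues.

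The first question was how abundant the 8 tRNAs were, and in what order. Levels between tRNAs are given as DESeq2 normalised counts (counts divided by a factor for library depth) per base of the tRNA, averaged over the 6 libraries. The lysine tRNA mt-Tk was highest at 650.05 per base, the third of the 22 mitochondrial tRNAs, and ranked first of the 8 in every library. It was followed by mt-Ts2 at 513.4, mt-Td at 449.6, mt-Tt at 398.7 and mt-Tl2 at 301.1. The arginine tRNA mt-Tr stood at 180.4, mt-Th at 134.8 and the glycine tRNA mt-Tg at 29.7, the lowest of all 22. The mean of mt-Tr, and so its place above mt-Th, rested on heterozygous library 1, at 697.0 per base against 39.5 to 114.2 elsewhere. The top and bottom members, which are encoded on the same transcript, thus differed 21.9-fold in mean level per base, and from 7.46-fold to 43.2-fold within a library. Not every step of this order held in each library. mt-Ts2 lay above mt-Td in 4 of 6 libraries, mt-Td above mt-Tt in 3 of 6, and mt-Tr above mt-Th in 2 of 6, so these neighbours did not differ beyond their spread. mt-Tk lay above mt-Ts2, and mt-Tt above mt-Tl2, in 6 of 6. How completely each tRNA was reverse transcribed was not measured, and levels between tRNAs include that step.

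The second question was whether the level of any of the 8 differed between genotypes. None of the 8 was called by DESeq2 at a false discovery rate of 10% (adjusted p from 0.892 to 1.0), where 17 of 734 tested transcripts, or 2.32%, were. None had an unadjusted p below 0.05 either, against 6.81% of the transcripts tested. The edgeR quasi-likelihood test also called 0 of the 8, with 0 at an unadjusted p below 0.05, and it called 0% of its 577 transcripts, 3.29% of which had an unadjusted p below 0.05. After normalisation the libraries of the genotypes overlapped for each of the 8, whereas they did not for 10.2% of the transcripts tested. The fitted difference was above 0 (higher in heterozygotes) for 7 members, beside 47.4% of the transcripts tested, and below 0 for 1. The members' median was 0.16 on the log2 scale, and that of all transcripts tested -0.04. Without wild-type replicate 1, or without heterozygous library 1, 3 members were above 0 and 5 below. With library totals as scaling, 2 were above 0 and 6 below. Under that scaling the median of all transcripts fitted went from -0.13 to -0.45 and that of the members from 0.16 to -0.22.

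The lysine tRNA mt-Tk had 4469, 77069 and 54506 counts across wild-type replicates 1 to 3, against 112239, 56107 and 25823 across heterozygous libraries 1 to 3. Wild-type replicate 1 was lowest and wild-type replicate 2 highest once depth was taken into account, at 13265 and 67413 normalised counts, and the heterozygous libraries fell between them. The mean normalised count of the wild-type libraries was 42042 ± 27234 and that of the heterozygous ones 42465 ± 14923 (SD, n = 3), with a log2 fold change of 0.01 and a 95% interval of -1.53 to 1.56. The interval spans changes of more than 1 log2 unit either way, so a difference of that size was not detectable with these libraries.

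For the aspartate tRNA mt-Td counts came to 2680, 57360 and 47503 for wild type (replicates 1 to 3), set beside 80119, 32994 and 20242 for heterozygotes (libraries 1 to 3). It was the only member with a fitted difference below 0, at -0.10 (SE 0.88). Wild-type replicate 1 was again lowest after normalisation, at 7955 against 15039 to 50173 in the others.

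The glycine tRNA mt-Tg, the scarcest, had 627, 1866 and 2770 counts among wild-type mice, compared with 5505, 3367 and 1158 among heterozygotes. Its normalised counts averaged 1934 ± 345 for wild type against 2109 ± 555 for heterozygotes (SD, n = 3), a log2 fold change of 0.12 with the narrowest interval of the 8, from -0.75 to 1.0. Unlike mt-Tk and mt-Td, it was not lowest in wild-type replicate 1.

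The arginine tRNA mt-Tr had the largest fitted difference, and it rested on 1 library. It was counted at 905, 8878 and 6942 across the wild-type libraries, against 98769, 12915 and 2190 across the heterozygous ones. Normalised, heterozygous library 1 stood at 47396, and the other 5 libraries lay between 2686 and 7766, with both remaining heterozygous libraries inside the wild-type range. With all libraries the log2 fold change came to 1.82 (SE 1.12, DESeq2 adjusted p = 0.892), and to -0.12 (DESeq2 adjusted p = 0.998) without heterozygous library 1. In that library mt-Tr made up 17.7% of the counts of the 8 tRNAs, against 2.20% to 5.10% in the other 5. The members on either side of it on the transcript were also highest there after normalisation, but by little, with 2642 for mt-Tg against at most 2310 elsewhere and 15383 for mt-Th against at most 13807. The ratio of mt-Tr to mt-Tg counts was 17.9 in heterozygous library 1 and 1.44 to 4.76 elsewhere.

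The histidine, serine and leucine tRNAs of the contiguous run had fitted differences of 0.51 (mt-Th, SE 0.93), 0.40 (mt-Ts2, SE 0.82) and 0.20 (mt-Tl2, SE 0.74). Counts of mt-Th were 518, 15785 and 8376 among wild-type mice, compared with 32056, 23066 and 3208 among heterozygotes. For mt-Ts2 they were 2499, 44929 and 38012 across the wild-type libraries, against 93570, 41777 and 21200 across the heterozygous ones. For mt-Tl2 they were 2282, 36666 and 24879 among wild-type mice, compared with 58390, 39395 and 12229 among heterozygotes. In all of these, wild-type replicate 1 was the lowest library after normalisation, and heterozygous library 1 was the highest heterozygous one. The threonine tRNA mt-Tt had 4416, 41309 and 34519 counts across the wild-type libraries, against 77523, 43481 and 13597 across the heterozygous ones, and a log2 fold change of 0.08 (SE 0.62).

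**Figure D1:**
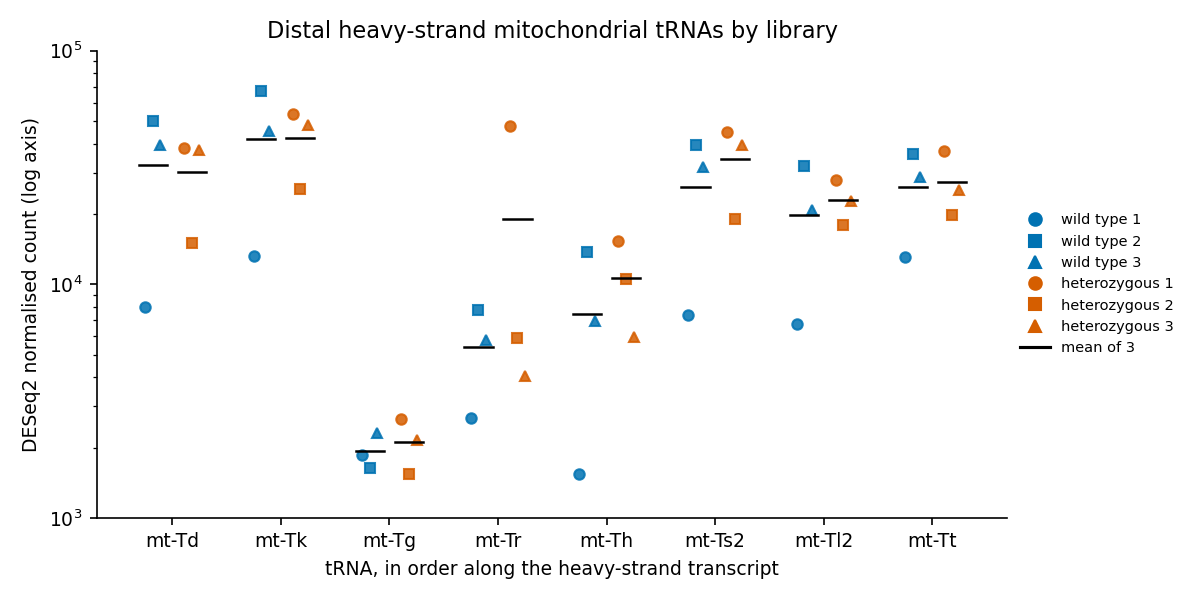
DESeq2 normalised counts (log axis) of the 8 distal heavy-strand tRNAs, ordered along the transcript, with wild-type libraries in blue, heterozygous libraries in orange and bars for the mean of 3. Wild-type replicate 1 (blue circle) is lowest for 7 of the 8, mt-Tg being the exception, and heterozygous library 1 (orange circle) stands apart for mt-Tr at 47396.

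The third question was whether the 8 tRNAs took a different part of the mitochondrial tRNA pool, a measure that does not depend on how libraries are scaled. They made up 21.5%, 34.6% and 33.8% of all mitochondrial tRNA counts across wild-type replicates 1 to 3, against 39.3%, 34.2% and 37.1% across heterozygous libraries 1 to 3. The 95% Wilson intervals of these shares reached no further than 0.275 percentage points from the value, for counting error only. The genotypes overlapped, since heterozygous library 2 lay below wild-type replicate 2, and wild-type replicate 1 stood well below the other 5 libraries. Wild type averaged 30.0% ± 7.36, and heterozygotes averaged 36.9% ± 2.55 (SD, n = 3). The difference was 0.33 on the log2 scale (exact permutation test, two-sided, p = 0.2, Benjamini-Hochberg value 0.6 over 6 comparisons of sums and ratios). The smallest p that 3 libraries against 3 allow is 0.1. No share or ratio could therefore have fallen below 0.1, the threshold of the fits, so these tests cannot show that a difference is absent. Without wild-type replicate 1 the difference was 0.11, and without mt-Tr, a choice made after its values were seen, it was 0.29.

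The rRNA-proximal tRNAs of the same strand and the tRNAs of the light strand served as comparison. The ratio of distal to proximal counts was 0.653, 1.49 and 1.22 among wild-type mice, compared with 1.67, 1.45 and 1.49 among heterozygotes, a difference of 0.54 on the log2 scale (exact permutation test, two-sided, p = 0.2). It became 0.19 without wild-type replicate 1. The ratio of distal to light-strand counts was 0.471, 0.821 and 0.882 across the wild-type libraries, against 1.06, 0.812 and 0.974 across the heterozygous ones, a difference of 0.43 (exact permutation test, two-sided, p = 0.3), and 0.15 without that library. Both ratios were lowest in wild-type replicate 1, and the genotypes overlapped in both. Of the other 14 mitochondrial tRNAs 0 were called, 8 had a fitted difference above 0 and 6 below, and their median was 0.06. In 1 of them, mt-Tf of the proximal group, the genotypes did not overlap after normalisation, beside 10.2% of the transcripts tested. Its log2 fold change was -0.83. Its share of mitochondrial tRNA counts, in which the genotypes overlapped, averaged 6.74% in wild type and 3.79% in heterozygotes. Its part in the distal to proximal ratio was not tested. The most abundant of the proximal group, mt-Ti, had a log2 fold change of -0.15, and that of the light-strand group, mt-Tp, one of 0.07.

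**Figure D2:**
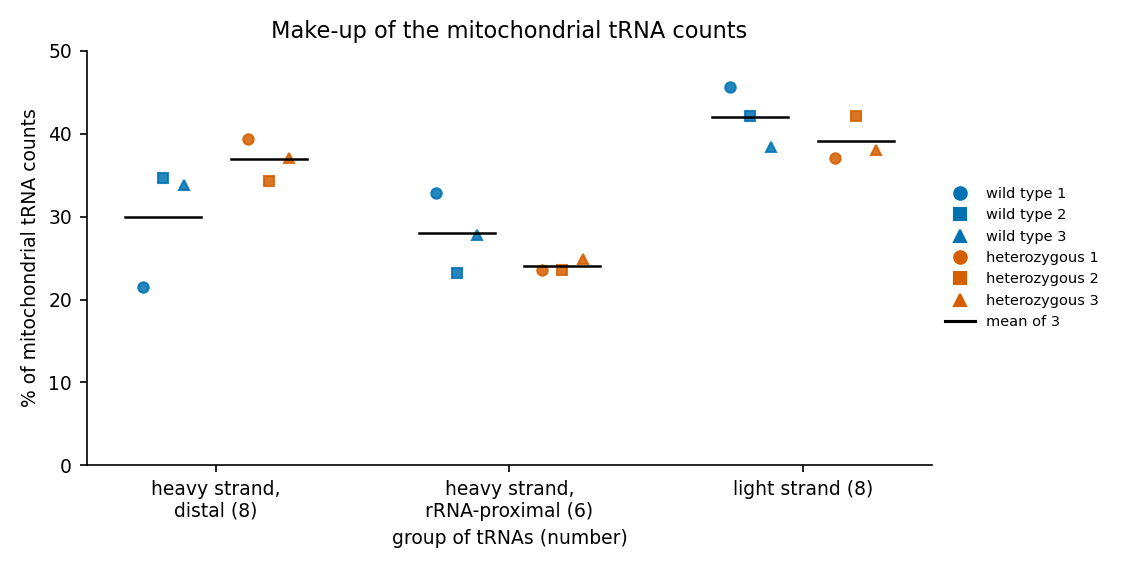
Percentage of all mitochondrial tRNA counts in the distal heavy-strand, rRNA-proximal heavy-strand and light-strand tRNAs, with a point per library and bars for the mean of 3. In wild-type replicate 1 the distal group holds 21.5%, and in the other 5 libraries it holds 33.8% to 39.3%.

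**Figure D3:**
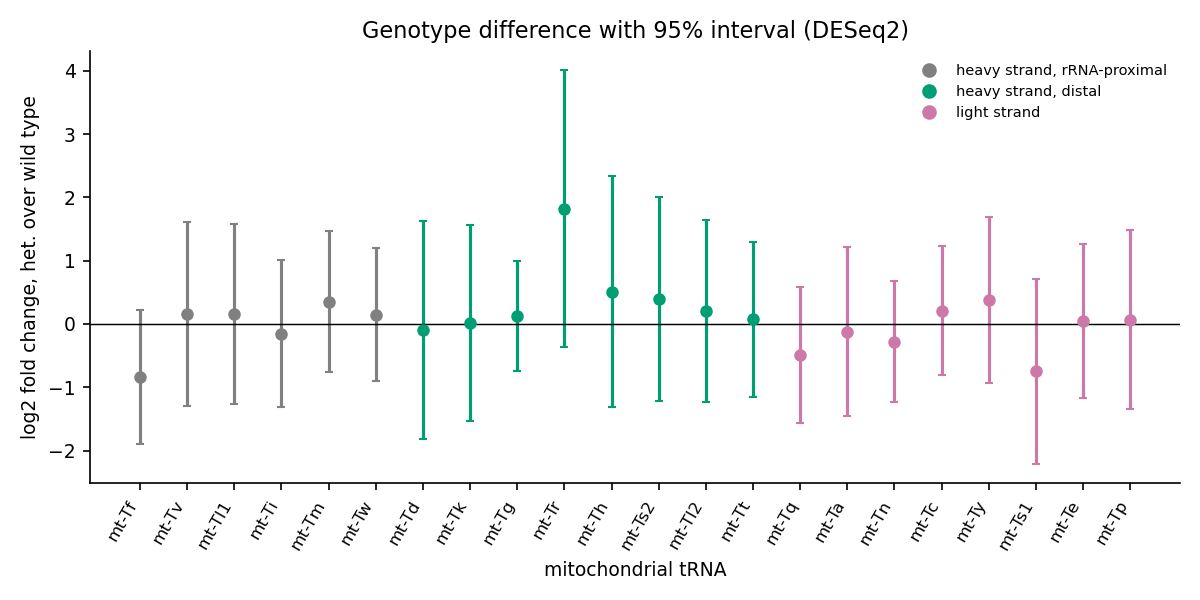
DESeq2 log2 fold changes of heterozygotes over wild type for the 22 mitochondrial tRNAs, with 95% intervals from 3 libraries per genotype and the distal group in green. Each interval includes 0, and that of mt-Tr is the widest, from -0.37 to 4.01.

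Within the pool, the members did not keep fixed proportions between libraries. The share of mt-Tk was 5.22%, 9.39% and 8.48% in the 3 wild-type libraries, whereas heterozygotes had 7.91%, 7.59% and 9.61%. The share of mt-Td was 3.13%, 6.99% and 7.39% in the former, whereas the latter had 5.64%, 4.46% and 7.53%. Both were lowest in wild-type replicate 1, and the other 5 libraries of the genotypes were interleaved. The threonine tRNA mt-Tt was steadiest, at 5.04% to 5.88% of mitochondrial tRNA counts in the 6 libraries, a 1.17-fold range. The range was 1.84-fold for mt-Tk, 2.0-fold for mt-Tl2, 2.41-fold for mt-Td, 2.70-fold for mt-Ts2, 3.22-fold for mt-Tg, 5.16-fold for mt-Th and 8.54-fold for mt-Tr. The median range of the 8 was 2.56-fold, beside 1.85-fold for the other 14, of which mt-Tl1 had the widest at 8.97-fold.

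The share of mt-Tr was 1.06%, 1.08% and 1.08% in wild type, closer together than for any other member, and 6.96%, 1.75% and 0.815% in heterozygotes. So the heterozygous libraries lay on both sides of the wild type, and library 1 held 6.44 times the median of the other 5. For mt-Th, shares of 0.605%, 1.92% and 1.30% in wild type met 2.26%, 3.12% and 1.19% in heterozygotes. The highest value of mt-Th was in heterozygous library 2, not in library 1.

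The shares of mt-Ts2 and mt-Tl2 came nearest to a separation of the genotypes. For mt-Ts2 they were 2.92%, 5.48% and 5.91% among wild-type mice, compared with 6.59%, 5.65% and 7.89% among heterozygotes (log2 difference 0.55, exact permutation test, two-sided, p = 0.2, Benjamini-Hochberg value 0.64 over the 8). For mt-Tl2 they were 2.67%, 4.47% and 3.87% across the wild-type libraries, against 4.11%, 5.33% and 4.55% across the heterozygous ones (log2 difference 0.37, exact permutation test, two-sided, p = 0.2, Benjamini-Hochberg value 0.64). In each, 1 wild-type replicate lay above the lowest heterozygous library. Without wild-type replicate 1 the log2 difference was 0.22 for mt-Ts2 and 0.16 for mt-Tl2. Over the 8, the exact two-sided p ran from 0.2 to 0.8 and the Benjamini-Hochberg value from 0.64 to 0.8. No member's share separated the genotypes, and 4.55% of the 22 tRNAs (mt-Tq alone) did so. The mean log2 share was higher in heterozygotes for 8 of the 8 and for 8 of the other 14. Shares are parts of the same pool, so a fall in some tRNAs raises the shares of the rest, and the 8 are not independent. Without wild-type replicate 1 the difference turned to -0.32 for mt-Td and -0.10 for mt-Tk, and stayed above 0 for the other members. For mt-Tg the log2 difference over all libraries was 0.03, while the means of the percentages ran the other way. Wild type averaged 0.464% ± 0.254 against 0.425% ± 0.0343 for heterozygotes (SD, n = 3).

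Wild-type replicate 1 departed from the other libraries in a pattern that differed between members. Its share, relative to the median of the other 5 libraries, was 0.314 for mt-Th, 0.448 for mt-Td, 0.494 for mt-Ts2, 0.596 for mt-Tl2 and 0.616 for mt-Tk. It was 0.960 for mt-Tt, 0.977 for mt-Tr and 1.70 for mt-Tg. It was the lowest library for 5 of the 8, and for 1 (mt-Tp) of the other 14. The share of mitochondrial tRNAs in all counts was also lowest in this library, and the part of either in the other was not tested.

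**Figure D4:**
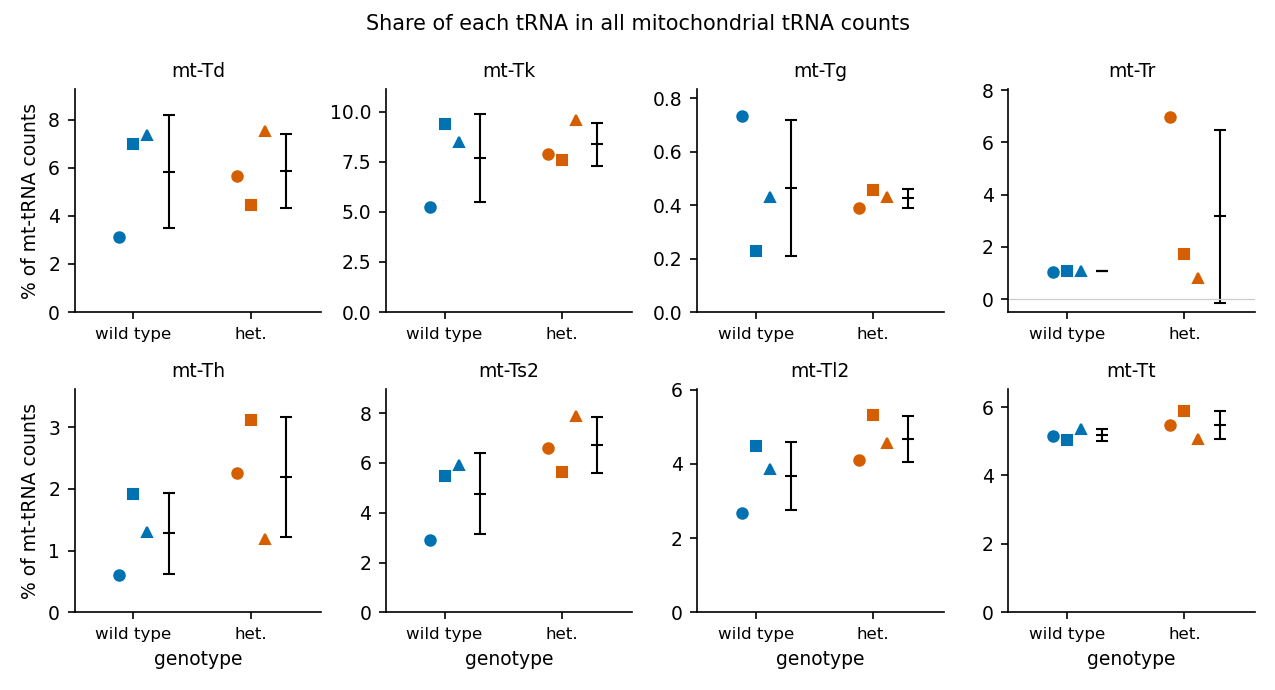
Percentage of all mitochondrial tRNA counts held by each of the 8 tRNAs, by genotype (het., heterozygous), with circles, squares and triangles for libraries 1, 2 and 3 and the mean ± SD of 3 beside them. mt-Tt stays between 5.04% and 5.88%, whereas mt-Tr reaches 6.96% in heterozygous library 1 and stays at 0.815% to 1.75% elsewhere.

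The 3 tRNAs of the contiguous run are cut from 1 stretch of RNA, and the ratios of their counts were compared between libraries. The ratio of mt-Th to mt-Ts2 counts was 0.207, 0.351 and 0.220 among wild-type mice, compared with 0.343, 0.552 and 0.151 among heterozygotes, a 3.65-fold range. That of mt-Tl2 to mt-Ts2 was 0.913, 0.816 and 0.654 across the wild-type libraries, against 0.624, 0.943 and 0.577 across the heterozygous ones, a 1.64-fold range. Thus counts of mt-Th lay below those of the other tRNAs of the run in every library, and the genotypes overlapped in both ratios. How completely each tRNA was reverse transcribed also enters these ratios. Between members that are further apart, mt-Td to mt-Tk had a 1.48-fold range and mt-Tt to mt-Tk a 1.88-fold range.

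Only 2 mRNAs of the same transcript are short enough to be in the table, mt-Atp8 (204 bases), which encodes a subunit of ATP synthase and follows mt-Tk, and mt-Nd4l (297 bases), which encodes a subunit of complex I and follows mt-Tr. RNA was selected below 200 bases, so both mRNAs are near or beyond the limit of the selection. mt-Atp8 had 50, 265 and 849 counts among wild-type mice, compared with 716, 715 and 109 among heterozygotes. Per base, mt-Tk exceeded it from 201.5-fold to 912.7-fold, and the counts' ratio did not separate the genotypes (log2 difference 0.27, exact permutation test, two-sided, p = 0.9). mt-Nd4l had 0, 140 and 186 counts across the wild-type libraries, against 320, 421 and 54 across the heterozygous ones, so it was not highest in heterozygous library 1, where mt-Tr was. Per base, mt-Tr exceeded mt-Nd4l 1348-fold in that library and from 134-fold to 277-fold in the other 4 with counts. The log2 difference of the mt-Tr to mt-Nd4l ratio was -0.83 (exact permutation test, two-sided, p = 0.6), and it turned to 0.58 without wild-type replicate 1, the library with a count of 0. All 294 bases of the pseudogene Gm10222 are identical to mt-Nd4l in the annotation, so the counts of these transcripts cannot be told apart, and Gm10222 was listed at 33, 0 and 243 in wild-type replicates 1 to 3 and at 0 in each heterozygous library. With Gm10222 added to mt-Nd4l the log2 difference was 1.26 (exact permutation test, two-sided, p = 0.4).

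Against all short transcripts of the table, the 8 tRNAs made up 1.07%, 6.96% and 5.86% of wild-type counts and 6.29%, 2.59% and 3.24% of heterozygous counts. Wild type averaged 4.63% ± 3.13, above the 4.04% ± 1.98 of heterozygotes (SD, n = 3), whereas the difference of mean log2 shares was 0.09 the other way (exact permutation test, two-sided, p = 0.9). It was -0.77 without wild-type replicate 1, the library with the lowest share. The spread within a genotype was thus larger than the difference between them. Among the 452 other transcripts averaging at least 100 counts, those whose normalised counts followed the sum of the 8 most closely over the 6 libraries (Pearson correlation of log2 values, a description only) were mt-Tp (0.990), mt-Te (0.985), Snord1c (0.935), Snord52 (0.917) and mt-Ti (0.916). All share the same 6 libraries and depth factors, and mt-Tp and mt-Te belong to the light strand. At the other end of the mitochondrial tRNAs, mt-Tl1 of the proximal group had -0.283.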

How the data were processed

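RNA of the duodenum was isolated with Trizol, selected for RNAs below 200 bases, demethylated and sequenced by the authors. Per the study's methods, reads were trimmed with Cutadapt and quantified with Salmon against an all-RNA decoy-aware index on GRCm39, and sequences below 300 bases were imported with tximport. What the authors deposited are Salmon's estimated counts per transcript, rounded to whole numbers by the authors, neither scaled nor pooled. The counting is not stated to use strand, and mature tRNAs, precursors and fragments share 1 count per gene. Columns of the wild type carry their sample names. Those of the remaining 3 libraries name a different Pol III subunit, and they were taken as heterozygous because no further group exists, with numbers in column order.

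Names and sequences came from GENCODE vM21 (GRCm38) by identifier. Gene order and spacing were read from that annotation. All 1929 transcripts were fitted in DESeq2 1.42.0 (R 4.3.3; Wald test, median-of-ratios size factors, adjusted p below 0.1), after the study's methods. The edgeR 4.0.16 quasi-likelihood test was an alternative. Both were tested on simulated data with changes larger than those fitted for the 8, so that test does not show what could be detected for them. Shares and ratios were compared by exact permutation over the 20 assignments of 6 libraries (scipy 1.17.1), with a pseudocount of 1 where an mRNA entered. Intervals of fold changes are 1.96 SE. Wilson intervals cover counting error only, since reads carried no molecular identifiers. Similarity was searched with BLAST 2.17.0. P-values set a genotype difference against the spread between these libraries. All 8 members are named, with mt-Atp8 and mt-Nd4l as short neighbours, the most abundant tRNA of each other group, marker hairpins and the transcripts of highest correlation. mt-Tf, mt-Tq, mt-Tl1 and Gm10222 were named after their values were seen, as was mt-Tp as lowest in wild-type replicate 1. Members and lists were chosen with earlier results of these data known.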

Additional observations from a re-analysis of the deposited data

How the results depend on the processing

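The finding that 0 of the 8 tRNAs passed the threshold held under every alternative fit run, with adjusted p-values from 0.287 to 1.0, whereas signs of single members did not. With the library total as scaling, DESeq2 differences turned to -0.43 (mt-Tk), -0.23 (mt-Tg), -0.065 (mt-Ts2), -0.22 (mt-Tl2) and -0.32 (mt-Tt), and with the most abundant transcript left out of that total to -0.41, -0.30, -0.050, -0.19 and -0.32. The median of all transcripts was -0.45 and -0.53 under these scalings and -0.13 in the reported fit. With size factors over the 22 mitochondrial tRNAs mt-Tg turned to -0.14, with edgeR mt-Tk turned to -0.037, and the mean share of mt-Tg differed by -0.0388 percentage points. Adding Gm10222 to mt-Nd4l turned the mt-Tr to mt-Nd4l ratio to 1.26. edgeR called 0 of all transcripts in place of 17.

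Leaving out 1 library at a time gave 7 to 68 calls over all transcripts (7 when heterozygous library 2 was left out, 68 when heterozygous library 3 was, and 55 when wild-type replicate 1 was) and 0 among the 8. On the log2 scale it moved the share of the 8 in mitochondrial tRNA counts between 0.11 and 0.45, the distal to proximal ratio between 0.19 and 0.78, the distal to light-strand ratio between 0.15 and 0.60, the share of all counts between -0.77 and 0.58, the mt-Tk to mt-Atp8 ratio between -0.16 and 0.92 and the mt-Tr to mt-Nd4l ratio between -1.88 and 0.58. DESeq2 differences ranged from -0.54 to 0.37 (mt-Td), -0.39 to 0.55 (mt-Tk), -0.067 to 0.31 (mt-Tg), -0.12 to 2.30 (mt-Tr), 0.05 to 1.33 (mt-Th), -0.024 to 0.83 (mt-Ts2), -0.19 to 0.75 (mt-Tl2) and -0.23 to 0.41 (mt-Tt). Log2 shares ranged from -0.32 to 0.30 (mt-Td), -0.10 to 0.32 (mt-Tk), -0.41 to 0.44 (mt-Tg), 0.15 to 1.70 (mt-Tr), 0.36 to 1.21 (mt-Th), 0.22 to 0.73 (mt-Ts2), 0.16 to 0.53 (mt-Tl2) and 0.02 to 0.13 (mt-Tt). The cause of these shifts was not tested. No paired analysis was run, because no source pairs a wild-type mouse with a heterozygous one. GEO's titles hold a bracketed number for every mouse, and a replicate number for the wild type only. The digits that end the heterozygous column names are tied to no labelled mouse, and no source says that a number marks a shared batch. The part of depth in the shares was not tested, and wild-type replicate 1, which departed most, was the shallowest library with 1719869 counts.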
